A study of Homo sapiens with 4 samples.

Results

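The knockdown of QPRT in BT-20 cells was described on its own, from 2 RNA-seq libraries, 1 with a control shRNA and 1 with a QPRT shRNA. BT-20 is an established human triple-negative breast cancer cell line. A short hairpin RNA (shRNA) is made inside the cell from an integrated vector and directs the degradation of the matching mRNA. The paper names pLKO.1-puro as the lentiviral vector of the QPRT shRNA, and for the control shRNA it names a lentiviral vector only. It describes selection with puromycin for the knockdown and does not mention the control cells separately. MDA-MB-468, another triple-negative line, with a control or a QPRT shRNA, gave the other 2 libraries of the series. Neither the labels nor the paper state whether the hairpins were the same in both lines. Of 50653 deposited genes, 13703 had a mean of at least 1 FPKM (fragments per kilobase of transcript, scaled to the size of the library) over the 2 BT-20 libraries, and these are the genes tested below. Differences are QPRT shRNA minus control shRNA of log2(FPKM + 1), a scale on which the changes of weakly expressed genes appear too small. With 1 library a side there is no replicate check and no p-value, and a gene was called higher or lower by size alone, at 2-fold or more. Exact Clopper-Pearson 95% intervals of the log2 ratio of fragments are given for single genes and cover counting error only.

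QPRT encodes quinolinate phosphoribosyltransferase, which turns quinolinic acid into nicotinic acid mononucleotide. This is the step at which the kynurenine pathway, the breakdown of tryptophan, enters the synthesis of NAD+. Cells also make NAD+ by salvage from nicotinamide, through the enzyme NAMPT, and from nicotinic acid, through NAPRT. NAD+ serves as an electron carrier and is consumed by sirtuins and by poly(ADP-ribose) polymerases.

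The library with control shRNA held 10621657 recovered fragments, and that with QPRT shRNA 10909859. The labelled cell type was checked against markers of the line. EGFR, which BT-20 overexpresses, was at 179 and 262 FPKM with control and QPRT shRNA, CDH1 at 340 and 353, CDH3 at 427 and 356 and KRT5 at 294 and 265. Among basal keratins, KRT17 was low, at 2.76 and 2.51 FPKM, and KRT6A at 1.24 and 1.71. PGR was at 0 in both. CDKN2A, which BT-20 has lost, had 0 fragments with control shRNA, which allows up to 3, and 9 fragments with QPRT shRNA.

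Small amounts of other RNA differed between the 2 libraries. Genes at 100 FPKM or more in both MDA-MB-468 libraries and under 0.1 FPKM with BT-20 control shRNA numbered 4, among them PSPHP1, CDKN2A and ALDH7A1, and with QPRT shRNA their median was 0.522% of the MDA-MB-468 level. In a wider set of 31 genes, taken at 20 FPKM or more and chosen after the values were seen, the median was 0.511%, and 23 of the 31 were higher with QPRT shRNA, a direction that the choice of genes near 0 in the control library favours. The reverse choice, of genes under 0.1 FPKM with QPRT shRNA, also made after the values were seen, found 13 genes, with a median of 0.0724% of the MDA-MB-468 level in the control library. Marker sums of gut, stomach and plasma cells were lower with QPRT shRNA. The summed FPKM of 20 intestinal markers was 95.6 with control and 47.7 with QPRT shRNA, with 19 of the 20 lower and CDX1 and GUCA2A at 0 with QPRT shRNA. The 10 gastric markers summed to 15.9 and 4.71 FPKM, the 9 plasma cell markers to 41.6 and 19.7 and the 8 leukocyte and blood markers to 8.25 and 3.87, of which 3 were lower and 3 higher, with LYZ at 6.66 and 0.60. CD68 and MS4A1 were at 0 in both libraries. The 7 fibroblast markers summed to 33.3 and 21.9 FPKM, and the 5 endothelial markers to 102 and 139.8, nearly all of it CDH5 (96.5 and 134), with KDR at 0 with QPRT shRNA. In MDA-MB-468 the intestinal sum was 486 with control and 293 with QPRT shRNA. The gastric sum there was 33.6 and 4.77, the plasma cell sum 106 and 24.2 and the fibroblast sum 20.7 and 15.6. Leukocyte and blood markers there summed to 28.5 in both libraries, and endothelial markers to 4.16 and 5.01. The origin of this RNA was not tested, and values of bulk samples do not show which cells or samples it came from.

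QPRT itself (ENSG00000103485), which GENCODE 29 places on the plus strand of chromosome 16 of GRCh38 from 29679008 to 29698699, had 249 FPKM in the control library and 40.5 FPKM in the knockdown library (3985 and 667 fragments). The log2 difference was -2.59, with an interval of the fragment ratio from -2.74 to -2.50. The targeted gene was thus 6.14-fold lower by FPKM in the library labelled as knockdown, and 40.5 FPKM remained. In MDA-MB-468 it was at 117 and 18.3 FPKM, a log2 difference of -2.62.

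KYNU, kynureninase, acts upstream of QPRT in the same pathway (ENSG00000115919; chromosome 2, plus strand, 142877498 to 143055832). It was at 3.0 FPKM and 13.7 FPKM, from 81 and 381 fragments. Its log2 difference was 1.88, with an interval of 1.85 to 2.56 for the fragment ratio, and it was 1.64 once the trend with base composition and length, described at the end, was taken out. In MDA-MB-468 the same gene was at 38.0 and 33.0 FPKM. The share of the MDA-MB-468 level seen in the BT-20 QPRT shRNA library equals 1.73% of the difference.

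The other genes of the pathway that could be tested did not reach 2-fold in either direction. Of the 12 genes of NAD+ synthesis from tryptophan, 6 passed the minimum. AFMID, which removes the formyl group from formylkynurenine, was at 23.7 and 19.01 FPKM, with an interval from -0.62 to -0.02. KMO, which hydroxylates kynurenine, was at 4.49 and 4.59 FPKM. The aminotransferases KYAT1 (5.43 and 4.47 FPKM) and KYAT3 (7.22 and 8.09 FPKM) had intervals that included 0. Those under the minimum were the tryptophan dioxygenases IDO1, IDO2 and TDO2, together with AADAT, HAAO and ACMSD. The enzyme that makes quinolinic acid's precursor, HAAO, had a level of 0.19 FPKM with control and 0.18 FPKM with QPRT shRNA, 2 fragments in each.

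Salvage genes did not reach 2-fold in either direction. NAMPT was at 274 and 283 FPKM, with an interval of the log2 ratio from -0.02 to 0.12, and NAPRT at 54.7 and 46.6 FPKM, with an interval from -0.40 to -0.07. NMNAT2, an adenylyltransferase that completes NAD+, was the furthest above control, at 22.1 and 30.5 FPKM (log2 difference 0.45, interval 0.33 to 0.60). NADSYN1, which amidates the product of the QPRT branch, was at 29.4 and 32.0 FPKM. The median of the 11 salvage genes and NAD kinases tested differed from that of all genes by 0.00. Among 21 sirtuins, poly(ADP-ribose) polymerases and NAD hydrolases tested, 0 were 2-fold higher and 0 were 2-fold lower, and at the shares over all genes (1.07% and 0.803%, given below) a list of this size would hold fewer than 1. PARP1, the main polymerase of DNA damage, was at 142 and 171 FPKM, and the mitochondrial deacetylase SIRT3 at 36.8 and 27.9.

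**Figure D1:**
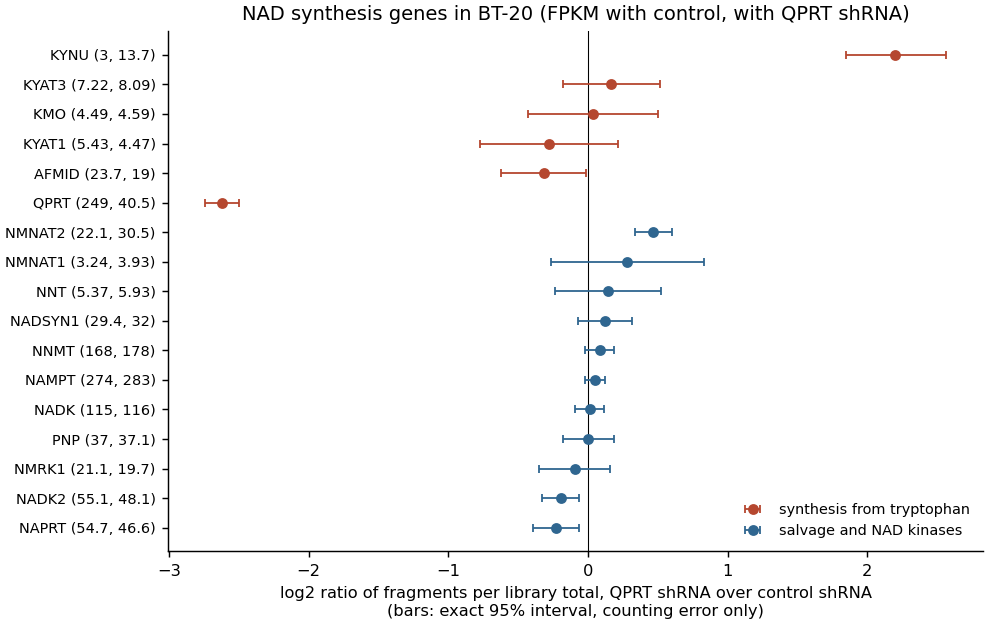
NAD+ synthesis genes tested in BT-20, 1 per row, with the FPKM in the control and the QPRT shRNA library in parentheses. The horizontal axis is the log2 ratio of fragments per library total, and bars are exact 95% intervals for counting error. QPRT, at 667 against 3985 fragments, and KYNU, at 381 against 81, stand apart from the other genes, whose points lie within 0.5 of 0.

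Over all tested genes, 146 of 13703 (1.07%) were at least 2-fold higher with QPRT shRNA and 110 (0.803%) at least 2-fold lower. At 1.5-fold there were 787 higher (5.74%) and 477 lower (3.48%). The median difference was 0.05, and the 5th and 95th percentiles were -0.51 and 0.61. Many of the called genes were low. Under 100 fragments over the 2 libraries were found for 74 of the higher and 67 of the lower genes. Among called genes with a recovered fragment number, the interval lay above 0 for 126 of 143 higher genes and below 0 for 88 of 105 lower genes. For 4 of the higher genes, the MDA-MB-468 share equals 50% or more of the difference. The genes just inside and outside 2-fold, among those with a mean of at least 5 FPKM, were COL13A1 (1.01) and PODXL2 (0.9994) above control and METTL7A (-1.01) and TNNC1 (-0.9993) below it.

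**Figure D2:**
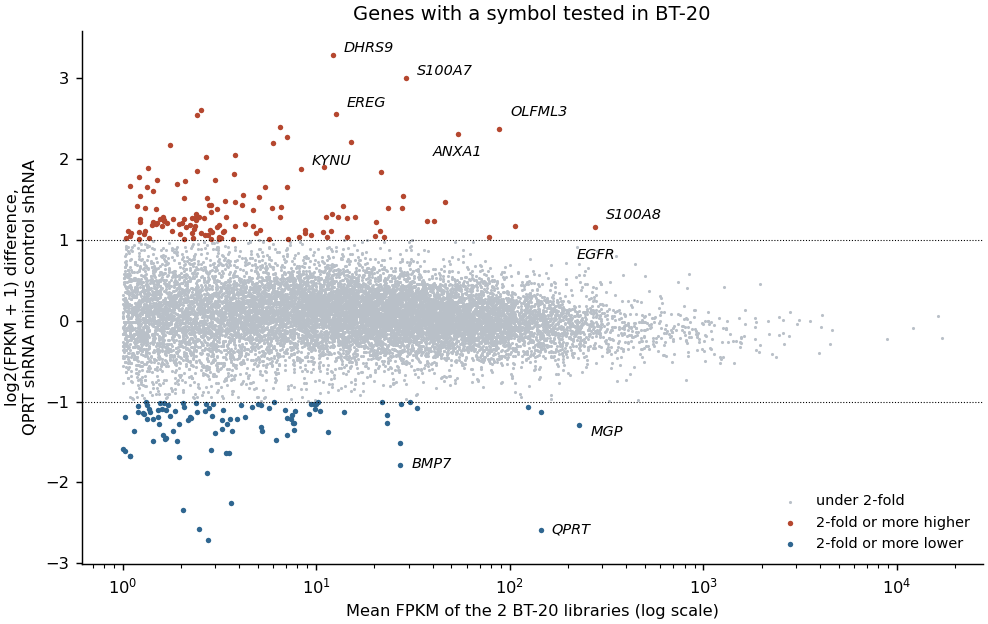
Difference between the BT-20 libraries against expression for the 13571 tested genes with a symbol, 1 point per gene, with the mean FPKM on a log axis and the log2(FPKM + 1) difference on the vertical axis. Dotted lines mark 2-fold. Points past the lines, 140 above and 102 below, thin out toward high expression, where QPRT, MGP, S100A8, OLFML3 and ANXA1 are among the few that remain.

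Among genes with a symbol and a mean of at least 5 FPKM, 45 were 2-fold higher and 35 were 2-fold lower. The 15 furthest above control were DHRS9, S100A7, EREG, PSG4, OLFML3, ANXA1, SERPINB5, PADI1, NOS3, NCCRP1, KYNU, INPP4B, ITGA2, ATG9B and BHLHE41. All 15 were low or moderate with control shRNA, at 1.40 to 27.8 FPKM, and lay between 8.81 and 148.5 FPKM with QPRT shRNA. In MDA-MB-468 none of them was 2-fold higher with QPRT shRNA, 7 had the same sign, and 4 were under 1 FPKM in both libraries. The percentage of all genes 2-fold higher in that line is not given here. The MDA-MB-468 share equals at most 1.98% of any of these differences.

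DHRS9 and S100A7 were furthest from control. DHRS9, a short-chain dehydrogenase that oxidises retinol, was at 1.45 and 22.9 FPKM (25 and 404 fragments, log2 difference 3.28, interval 3.39 to 4.62). S100A7, the antimicrobial protein psoriasin, was at 5.72 and 52.7 FPKM (28 and 265 fragments, interval 2.64 to 3.82). PADI1, which converts arginine to citrulline in keratinocyte proteins, was at 4.76 and 25.7 FPKM. SERPINB5, the mammary serpin maspin, was at 1.77 and 12.4 FPKM from 19 and 137 fragments. ANXA1, a calcium-dependent phospholipid-binding protein that is induced by glucocorticoids, was at 17.5 and 90.7 FPKM (207 and 1100 fragments, interval 2.16 to 2.59).

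EREG followed them. EREG, epiregulin, a ligand of EGFR and ERBB4, was at 2.95 and 22.3 FPKM (68 and 527 fragments, interval 2.55 to 3.30). ITGA2, the alpha subunit of a collagen receptor, was at 2.91 and 11.3 FPKM. INPP4B, a lipid phosphatase that limits PI3K signalling, was at 8.88 and 34.4 FPKM. OLFML3, a secreted olfactomedin-domain protein, had the highest level of the 15, at 27.8 and 148.5 FPKM from 487 and 2669 fragments. BHLHE41, a transcriptional repressor of the circadian clock, was at 13.9 and 42.3 FPKM.

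Some of these values depend on how reads were assigned. NOS3, endothelial nitric oxide synthase, was at 1.49 and 10.5 FPKM, and ATG9B, a membrane protein of autophagy, at 2.13 and 8.81. The 2 genes overlap on opposite strands of chromosome 7, where NOS3 runs from 150990995 to 151014588 and ATG9B from 151012209 to 151024499, and without strand information reads from the stretch they share cannot be told apart. PSG4, at 1.40 and 11.6 FPKM, belongs to the pregnancy-specific glycoproteins, a family of near-identical genes, and its count is uncertain.

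**Figure D3:**
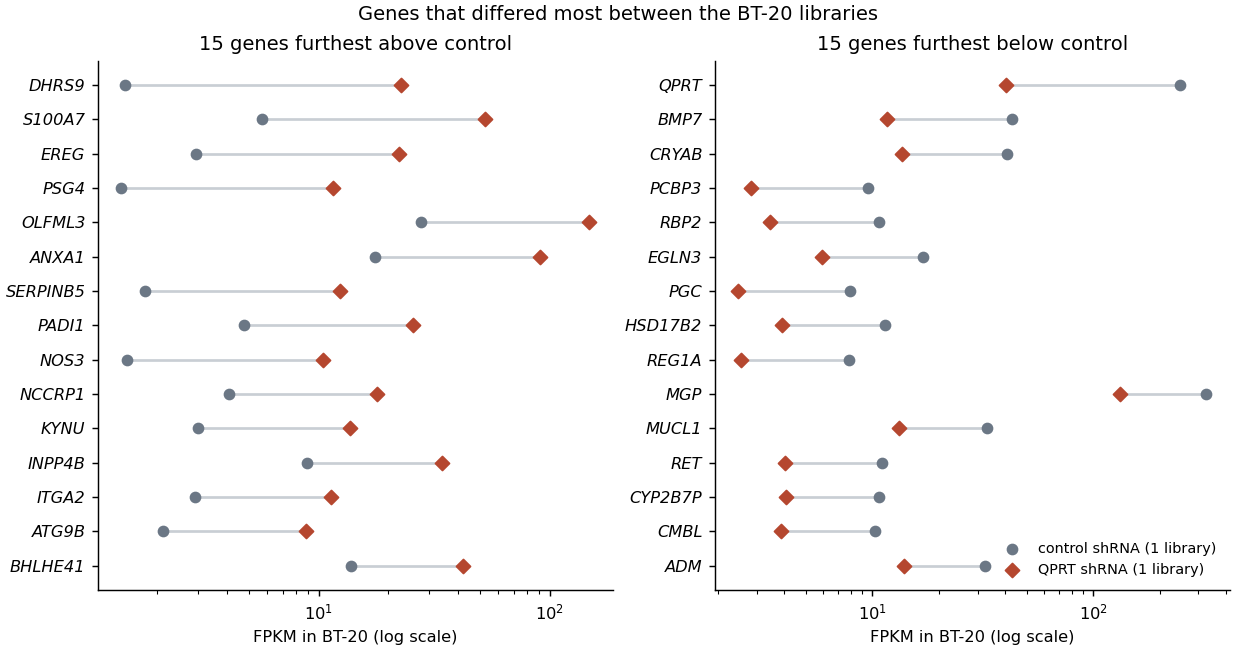
FPKM of the 15 genes furthest above control (left) and the 15 furthest below it (right) in the 2 BT-20 libraries, on log axes, with circles for control shRNA and diamonds for QPRT shRNA and 1 library per symbol. The genes above control lie between 1.40 and 27.8 FPKM with control shRNA, while those below it lie between 7.87 and 325 FPKM.

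The 15 furthest below control were QPRT, BMP7, CRYAB, PCBP3, RBP2, EGLN3, PGC, HSD17B2, REG1A, MGP, MUCL1, RET, CYP2B7P, CMBL and ADM. In MDA-MB-468 the percentage of all genes 2-fold lower is not given here. Of the 15, those also 2-fold lower there were 4, namely QPRT, RBP2, PGC and REG1A. The last 3 are genes of the gut and stomach, and PGC and REG1A are themselves members of the gastric and intestinal marker sums given above. RBP2, an intestinal retinol-binding protein, was at 10.8 and 3.43 FPKM from 52 and 17 fragments. PGC, the pepsinogen progastricsin, was at 7.97 and 2.48 FPKM, and REG1A, a secreted lectin of pancreas and gut, at 7.87 and 2.55 FPKM. The part of other tissues' RNA in these results was not tested.

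BMP7 followed QPRT in distance from control. BMP7, a bone morphogenetic protein on chromosome 20, was at 42.8 and 11.7 FPKM (565 and 159 fragments, interval -2.13 to -1.61). MGP, matrix Gla protein, an inhibitor of calcification and of BMP signalling, had the highest level of the 15, at 325 and 132 FPKM (3317 and 1381 fragments, interval -1.39 to -1.21). MUCL1, a small mucin-like protein of the breast, was at 33.1 and 13.2 FPKM. ADM, adrenomedullin, a vasodilator peptide induced by hypoxia, was at 32.5 and 13.9 FPKM. EGLN3, an oxygen-dependent prolyl hydroxylase that is itself hypoxia-inducible, was at 17.1 and 5.94 FPKM.

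The others were CRYAB, PCBP3, HSD17B2, RET, CMBL and CYP2B7P. CRYAB, the small heat shock protein alpha B-crystallin, was at 40.8 and 13.6 FPKM from 336 and 115 fragments, and it overlaps HSPB2 on the opposite strand. HSD17B2, which inactivates estradiol and testosterone by oxidation, was at 11.4 and 3.89 FPKM. RET, a receptor tyrosine kinase, was at 11.1 and 4.03 FPKM. PCBP3, a poly(C)-binding protein, was at 9.61 and 2.82 FPKM, and the hydrolase CMBL at 10.2 and 3.86. CYP2B7P, at 10.7 and 4.06 FPKM, is annotated as a pseudogene, so reads of its functional paralogs could have been counted with it.

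The sequence before the transcription start was compared for these genes, using the promoters of RefSeq on GRCh38.p14, from 250 bases before to 50 bases after the start, at the start listed first. The table held promoters for 10112 of the tested genes, 14 of the 15 above control and 8 of the 15 below. The letters TATAAA, the core of the TATA box, on either strand within the last 75 bases before the start, were found in 5 of the 14 and in 4 of the 8. They were found in 233 of the 10112 promoters (2.30%). The median size of the difference, in either direction, was 0.24 for genes with the letters and 0.20 for genes without them. Among all genes called 2-fold, they were in 12 of 80 higher genes with a promoter (15%) and in 9 of 49 lower ones (18.4%). The motif and window were chosen after the sequences were seen. Of the 4 genes below control that hold the letters, PGC, RBP2 and REG1A are the genes of gut and stomach named above. The 75 bases before the start are shown for the genes that hold the letters, since these are among the genes that differed most. Each is written 5′ to 3′ on the strand of its gene, with TATAAA in capitals (in KYNU the letters occur on both strands and overlap).
EREG, chr4:74365070-74365144, plus strand: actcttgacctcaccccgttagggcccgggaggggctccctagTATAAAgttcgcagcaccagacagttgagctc
S100A7, chr1:153460652-153460726, minus strand: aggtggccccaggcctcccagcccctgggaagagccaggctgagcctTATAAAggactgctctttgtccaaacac
ANXA1, chr9:73151790-73151864, plus strand: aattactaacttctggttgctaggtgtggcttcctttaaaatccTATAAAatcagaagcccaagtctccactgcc
DHRS9, chr2:169067002-169067076, plus strand: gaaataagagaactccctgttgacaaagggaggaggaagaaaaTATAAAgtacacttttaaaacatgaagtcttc
KYNU, chr2:142877589-142877663, plus strand: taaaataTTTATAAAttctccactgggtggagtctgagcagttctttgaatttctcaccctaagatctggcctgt
PGC, chr6:41747398-41747472, minus strand: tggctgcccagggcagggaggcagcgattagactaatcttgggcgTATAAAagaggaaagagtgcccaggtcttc
RBP2, chr3:139476517-139476591, minus strand: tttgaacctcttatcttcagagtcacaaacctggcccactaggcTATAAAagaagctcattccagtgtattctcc
REG1A, chr2:79120413-79120487, plus strand: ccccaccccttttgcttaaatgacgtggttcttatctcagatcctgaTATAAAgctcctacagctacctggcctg
ADM, chr11:10304998-10305072, plus strand: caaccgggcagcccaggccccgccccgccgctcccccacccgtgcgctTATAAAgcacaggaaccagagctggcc

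In EREG, S100A7, ANXA1, DHRS9, PGC, RBP2, REG1A and ADM the first T lay 27 to 32 bases before the start, and in KYNU it lay 66 bases before it on the sense strand. DHRS9 has 4 starts in the table, and only the start listed first is shown. Over the whole 300 bases, on either strand, the AP-1 site TGANTCA was in 2 of the 14 promoters against 4.48% of all. The core of the xenobiotic response element, GCGTG, was in 5 of the 14 against 51.0% of all, and the GC box GGGCGG in 6 of the 14 against 70.4%. Of the 8 promoters of genes below control, 0 held the AP-1 site, 3 held GCGTG and 3 held GGGCGG. These are matches of letters and no measurement of binding.

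Gene lists were then described by the median difference of their tested members minus that of all tested genes. Of 53 lists with at least 10 tested genes, 27 lay above 0 and 30 lay within 0.1 of it. With the composition and length trend removed, 31 lay within 0.1 and 45 kept their sign.

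ERBB receptors and their ligands stood furthest above 0 among lists of more than 10 tested genes, by 0.55 (0.47 after removal of the trend), against -0.13 in MDA-MB-468. Of 12 tested members 9 lay above the median of all genes, 3 were 2-fold higher, against 1.07% of all genes, and none was 2-fold lower. EPGN, among the 3, passed the minimum of 1 FPKM only through the QPRT shRNA library. Besides EREG these were AREG, amphiregulin, at 1.53 and 4.74 FPKM, and EPGN, epigen, at 0.52 and 2.71 FPKM with a wide interval of 0.57 to 4.8. TGFA was at 23.4 and 39.6 FPKM (interval 0.54 to 0.98) and HBEGF at 1.22 and 3.02 FPKM. The receptor EGFR was at 179 and 262 FPKM, from 5702 and 8558 fragments (log2 difference 0.54, interval 0.50 to 0.60). ERRFI1, a feedback inhibitor of EGFR, was at 107 and 161 FPKM. The receptors ERBB2 (129 and 122 FPKM) and ERBB3 (59.3 and 64.4 FPKM) were close to control. NRG2, a neuregulin that binds ERBB3 and ERBB4, was on the other side, at 2.96 and 1.14 FPKM.

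S100 genes, which encode small calcium-binding proteins, lay above 0 by 0.49 (0.64 after removal of the trend), against -0.14 in MDA-MB-468. Of 14 tested members 12 lay above the median of all genes and 3 were 2-fold higher, against 1.07% of all genes. S100A8 was at 171 and 384 FPKM (interval 1.06 to 1.28), and its partner in calprotectin, S100A9, at 1656 and 2260 FPKM (log2 difference 0.45). S100A4 was at 5.23 and 12.2 FPKM, and S100A6 at 257 and 448 FPKM. S100A10, the ligand of annexin A2, and S100A11 lay below control, at 709 and 528 and at 1215 and 959 FPKM. Of 15 kallikrein-related peptidases, serine proteases of skin and breast, 4 were tested, and all 4 lay above the median of all genes. Their median lay above 0 by 0.79 (0.93 after removal of the trend), against 0.44 in MDA-MB-468. With no minimum on FPKM it was 0.18, and of all 15 kallikreins 7 were higher and 2 lower. The highest of the 4 tested was KLK5, at 270 and 313 FPKM. KLK6, 1 of the 4, was 2-fold higher, at 50.8 and 105 FPKM, against 1.07% of all genes.

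Integrins, the receptors for extracellular matrix, lay above 0 by 0.34 (0.25 after removal of the trend), against 0.07 in MDA-MB-468. Of 12 tested, 9 lay above the median of all genes and 1, ITGA2, was 2-fold higher, against 1.07% of all genes. With no minimum on FPKM the median was 0.036, and of all 25 integrins 13 were higher and 11 lower. ITGA3, the alpha subunit of a laminin receptor, was at 199 and 363 FPKM (log2 difference 0.86, interval 0.81 to 0.93), and its partner ITGB1 at 617 and 864 FPKM. ITGAV was at 57.6 and 79.8 FPKM and ITGB6 at 66.9 and 94.1 FPKM, while ITGB5 was lower, at 614 and 493 FPKM. Among 6 genes of the insulin-like growth factor system, IGF2R (38.2 and 58.9 FPKM) and IGF1R (43.8 and 56.5 FPKM) were above control and IGFBP5 (2117 and 1645 FPKM) below. Among 21 tested NF-kappa-B chemokines, cytokines and regulators, 2 were 2-fold higher, against 1.07% of all genes. They were LIF, a cytokine of the interleukin-6 family, at 12.4 and 34.4 FPKM (interval 1.28 to 1.66), and TNFAIP3, a deubiquitinase that restrains NF-kappa-B, at 0.47 and 2.16 FPKM, which passed the minimum only through the QPRT shRNA library.

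Genes of DNA replication lay above 0 by 0.22 (0.17 after removal of the trend), against -0.21 in MDA-MB-468. Of 53 members, all tested, 43 lay above the median of all genes, 3 were 1.5-fold higher, against 5.74% of all genes, and 0 were 2-fold higher or lower. Many members were thus above control by a small amount each. POLA1, the catalytic subunit of polymerase alpha, was at 4.37 and 7.52 FPKM (interval 0.48 to 1.09), the helicase subunit MCM6 at 38.3 and 58.6 and the ribonucleotide reductase subunit RRM2 at 58.6 and 84.2. POLD2, a subunit of polymerase delta, was at 296 and 199 FPKM, and TK1, thymidine kinase, at 141 and 105. Homologous recombination and Fanconi genes lay above 0 by 0.24, with 27 of 36 above the median of all genes. After removal of the trend they lay above it by 0.11, with 23 of 36 above, and in MDA-MB-468 at -0.19. BRCA1 was at 9.57 and 17.7 FPKM (log2 difference 0.83, interval 0.64 to 1.13), its partners PALB2 at 12.3 and 17.4 and BARD1 at 4.23 and 5.87, and the kinase ATR at 12.05 and 18.5. Of all 37 listed recombination and Fanconi genes, 28 were higher and 9 lower by any amount.

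Mitosis and spindle genes had a median on the other side. It lay below 0 by 0.09, and by 0.17 after removal of the trend, with 19 of 54 above the median of all genes. In MDA-MB-468 the median of these genes lay further below, at -0.46, with 0 of 54 above that of all genes. PLK1, a mitotic kinase, was at 58.0 and 35.3 FPKM (interval -0.89 to -0.55), the separase inhibitor PTTG1 at 55.5 and 33.9, and KIF20A, a kinesin of cytokinesis, at 27.4 and 17.5. On the other side, MKI67 was at 8.52 and 11.1 FPKM and CENPF at 39.6 and 50.5. Replication-dependent histone genes, whose mRNA ends in a stem-loop in place of a long poly(A) tail, lay below 0 by 0.35 (0.20 after removal of the trend), with 5 of 29 above the median of all genes. Their value in MDA-MB-468 was 0.04. H1-2 was at 162 and 109 FPKM and H2BC12 at 114 and 66.2, while H2AC25 was at 149 and 152. Histone genes share near-identical sequence, and their counts are uncertain.

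Nucleoporins lay above 0 by 0.16, with 18 of 26 above the median of all genes, and TPR, a filament of the nuclear basket, was at 46.1 and 73.8 FPKM. Chromatin modifiers lay above 0 by 0.15, with 51 of 66 above, and genes of the centrosome and cilium by 0.15, with 42 of 61 above. KMT2C, a histone methyltransferase, was at 11.6 and 20.2 FPKM, the acetyltransferase KAT6A at 5.33 and 10.2, and the centrosomal protein CEP350 at 12.6 and 23.5. Other members lay below control by any amount, namely 8 of 27 listed nucleoporins, 11 of 66 chromatin modifiers and 21 of 66 centrosome and cilium genes. With the trend removed, the medians of these lists were 0.12, 0.07 and 0.05, with 18 of 26, 45 of 66 and 36 of 61 above. In MDA-MB-468 they were -0.10, -0.10 and -0.12. Zinc finger genes with ZNF symbols lay above 0 by 0.08 before and 0.01 after removal of the trend, over 415 tested genes, and by 0.09 in MDA-MB-468.

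Genes induced by the transcription factor ATF4, which responds to amino acid shortage and stress, lay below 0 by 0.30 (0.25 after removal of the trend), against -0.06 in MDA-MB-468. Only 8 of 39 lay above the median of all genes. NUPR1, a stress-induced nuclear protein, was at 215 and 113 FPKM (5048 and 2719 fragments, interval -1.0 to -0.86), and DDIT3, the factor CHOP, at 28.4 and 15.9. PCK2, mitochondrial phosphoenolpyruvate carboxykinase, was at 85.2 and 56.7 FPKM, and AARS1, the alanyl-tRNA synthetase, at 1698 and 1177. Amino acid transporters differed from these, with SLC38A2 at 308 and 458 FPKM and SLC7A11 at 13.1 and 16.6.

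Chaperones of the endoplasmic reticulum and genes of the unfolded protein response lay below 0 by 0.13 (0.22 after removal of the trend), with 11 of 33 above the median of all genes. Their value in MDA-MB-468 was -0.09. SDF2L1, at 169 and 79.7 FPKM (interval -1.22 to -0.94), was 2-fold lower, 1 of 33 against 0.803% of all genes. CRELD2 was at 139 and 74.8 FPKM and the secreted factor MANF at 178 and 109. HSPA5, the chaperone BiP, was at 510 and 321 FPKM from 21159 and 13691 fragments (log2 difference -0.67, interval -0.70 to -0.64), and HSP90B1 at 1199 and 847 FPKM. The sensors of the response were closer to control, with ATF6 at 19.3 and 22.3 FPKM and EIF2AK3 at 7.92 and 8.97.

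Targets of NRF2, the regulator of the antioxidant response, lay below 0 by 0.22 (0.14 after removal of the trend), with 8 of 34 above the median of all genes. Their value in MDA-MB-468 was -0.05. AKR1C2, an aldo-keto reductase, was at 217 and 110 FPKM (interval -1.07 to -0.89), AKR1C3 at 227 and 148, and OSGIN1 at 53.7 and 29.8. AKR1C1, AKR1C2 and AKR1C3 have similar sequence, and reads may be split among them. AKR1C1 was at 3.44 and 2.56 FPKM. FTL, ferritin light chain, was at 4478 and 3392 FPKM. NQO1, a quinone reductase, was at 2597 and 2298 FPKM, and the glutathione synthesis genes GCLC (67.4 and 73.7) and GCLM (68.4 and 72.3) were at or slightly above control.

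Ribosomal proteins, respiratory subunits and proteasome subunits lay below 0 by small amounts. Translation initiation and elongation factors lay at -0.02, with 29 of 60 above the median of all genes. Of 80 cytosolic ribosomal protein genes, 1 lay above the median of all genes (21 with the trend removed), and the list lay below 0 by 0.20 (0.09 after removal of the trend), against 0.17 above it in MDA-MB-468. Mitochondrial ribosomal proteins lay below by 0.19 (0.09), nuclear-encoded subunits of oxidative phosphorylation by 0.22 (0.11) and proteasome subunits by 0.19 (0.12). In MDA-MB-468 these lists lay at 0.13, 0.07 and -0.13, in the same order. RPLP0 was at 1841 and 1877 FPKM and RPL8 at 2736 and 2012. NDUFS6, a subunit of complex I, was at 496 and 299 FPKM (interval -0.81 to -0.65), and ATP5F1B, the catalytic beta subunit of ATP synthase, at 558 and 622. PSMB6, a catalytic subunit of the proteasome, was at 253 and 158 FPKM. The 13 subunits encoded by mitochondrial DNA lay below 0 by 0.09, with MT-CO1 at 16000 and 16625 FPKM.

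Targets of YAP and TEAD, effectors of the Hippo pathway, lay below 0 by 0.18 (0.14 after removal of the trend), with 6 of 23 above the median of all genes. Their value in MDA-MB-468 was -0.09. CCN1, a matricellular protein, was at 262 and 189 FPKM, and NT5E, the ectonucleotidase CD73, was furthest on the other side, at 6.44 and 17.6.

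**Figure D4:**
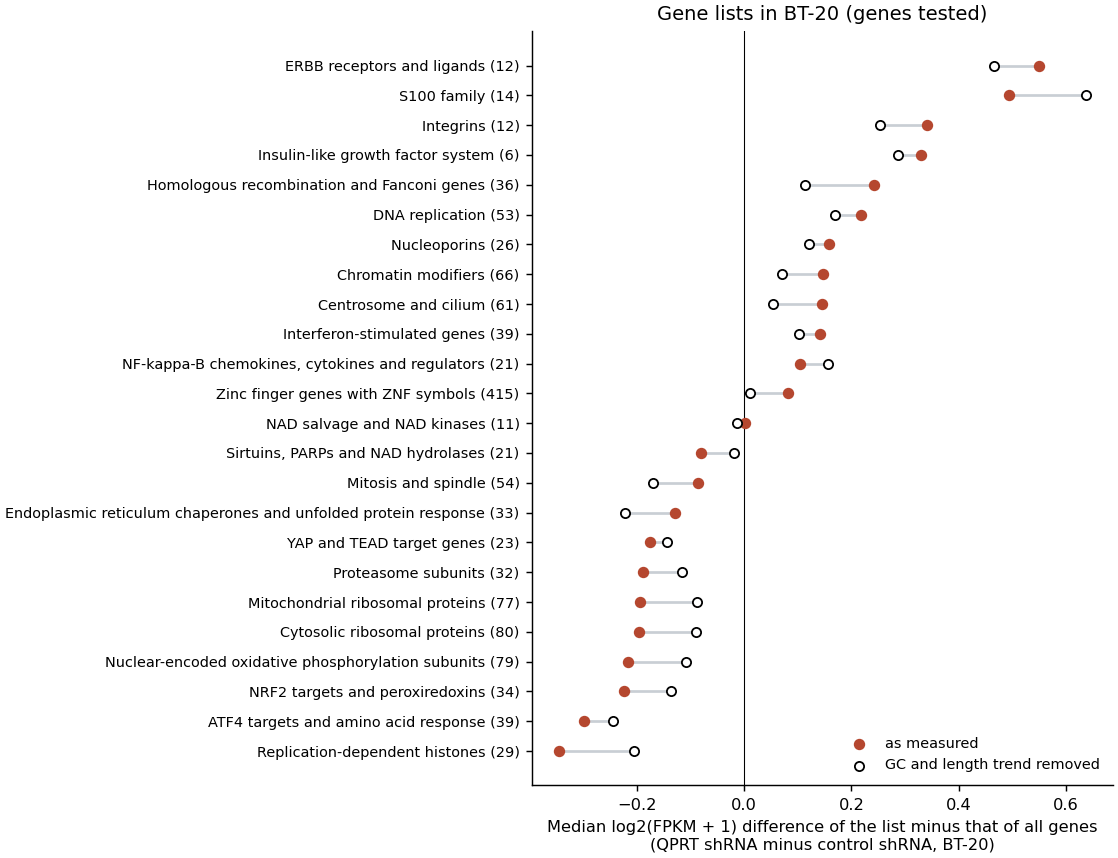
Median log2(FPKM + 1) difference of gene lists minus that of all genes in BT-20, with the number of tested genes in parentheses, as measured (filled) and with the GC content and length trend taken out (open). ERBB, S100 and integrin genes lie furthest to the right, at 0.55, 0.49 and 0.34, and histones and ATF4 targets furthest to the left, at -0.35 and -0.30. Chromatin, centrosome, ZNF, ribosomal and respiratory lists move toward 0 when the trend is removed.

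The differences followed the composition of the transcripts. Across 13619 genes with both values, the Spearman rho of the difference was -0.29 with GC content and 0.29 with transcript length, while GC content and length had a rho of -0.19 with each other. These are correlations across genes, which are not independent replicates. With the genes in 5 bins of equal size, the medians were 0.19, 0.11, 0.05, -0.02 and -0.07 from the lowest to the highest GC content. Binned by length they were -0.10, -0.02, 0.03, 0.11 and 0.18 from the shortest to the longest transcripts. In MDA-MB-468 the order was opposite, from -0.12 to 0.13 by GC content and from 0.05 to -0.05 by length. A lowess trend on both took 9.45% of the variance of the difference, and after its removal rho was 0.06 and -0.0024. Whether the composition trend arose in the cells or in library preparation was not tested.

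**Figure D5:**
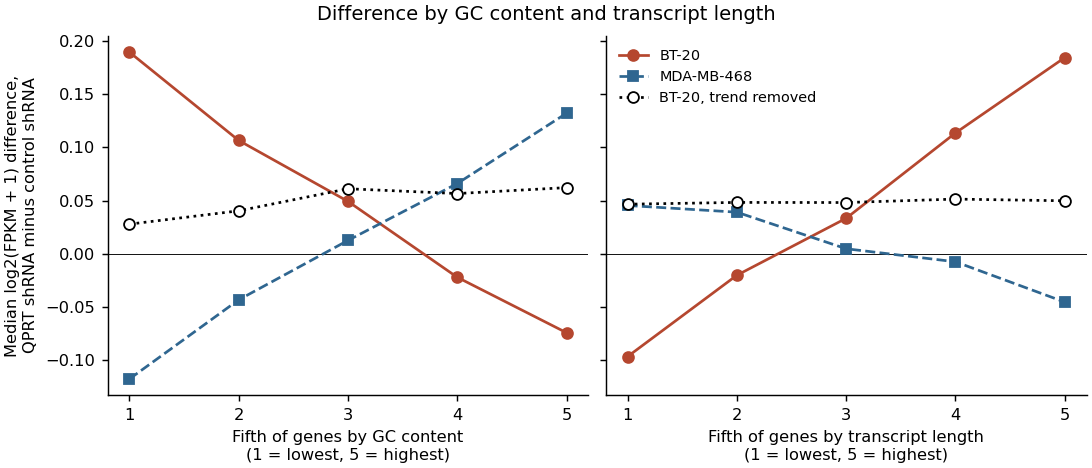
Median log2(FPKM + 1) difference in 5 equal bins of the tested genes by GC content (left) and by transcript length (right), in BT-20 (solid), in MDA-MB-468 (dashed) and in BT-20 after removal of the trend (dotted). In BT-20 the medians run from 0.19 down to -0.07 with GC content and from -0.10 up to 0.18 with length, and the MDA-MB-468 medians run the opposite way.

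Position on the genome was not used to choose the genes. Chromosome medians minus that of all genes ran from -0.11 on chromosome 19, where the tested genes had a median GC content of 58.5%, to 0.12 on chromosome 18, with 45.2%. After removal of the trend they ran from -0.10 on chromosome 14 to 0.05 on chromosome 7. Over all tested genes, 1.07% were 2-fold higher and 0.803% 2-fold lower. Chromosome 19 held 16 of the 146 higher and 6 of the 110 lower genes among 1077 tested. Chromosome 7 held 13 and 2 among 680, and chromosome 2 held 13 and 7 among 898. These were the largest counts of higher genes, on chromosomes with many tested genes. The share of higher genes was larger on chromosome 18, with 6 higher and 1 lower among 174, and on chromosome 21, with 6 and 3 among 169.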

How the data were processed

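Total RNA of BT-20 and MDA-MB-468 cells, stably transduced with a control or a QPRT shRNA, gave 4 libraries, 1 for each line and shRNA. They were prepared with TruSeq and sequenced on an Illumina NovaSeq instrument. The authors deposited 1 table of FPKM per Ensembl gene. The submitters' processing notes name FastQC, MultiQC, CASAVA, TopHat2 2.0.12 and HTSeq 0.6.1. The genome build, annotation and strand setting are not given in the sources used here. The table holds no counts. Multiplying each FPKM by the mean length of the gene's GENCODE 29 transcripts gave multiples of a single value per library, from which fragments were recovered. Of the nonzero values 87.3 to 87.6% were within 0.02 of a whole number, and 97.6 to 97.8% for genes with a single transcript. Fragments were used for intervals, for counts of genes under 100 fragments and for 1 alternative filter, and not for a count test.

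Genes with a mean of at least 1 FPKM over both BT-20 libraries were compared as log2(FPKM + 1). Named genes were the 15 furthest on each side among genes with a symbol and a mean of at least 5 FPKM, plus members of gene lists. The members and lists were chosen with earlier results of these data known. GC content and transcript length came from GENCODE 29, and their trend was removed by lowess (span 0.3). Promoters were those of RefSeq on GRCh38.p14. Analyses used Python 3.11.15, pandas 2.3.3, NumPy 2.4.6, SciPy 1.17.1, statsmodels 0.14.6 and matplotlib 3.10.9, and were tested on simulated data. The alternatives were another pseudocount (0.1), no filter, a mean of at least 5 FPKM, upper quartile scaling, TPM, removal of the trend, subtraction of the MDA-MB-468 share, at least 100 fragments and a 1.5-fold threshold. Of 63 gene lists, those with results in the text are described, and some genes and lists are not reported here.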

Additional observations from a re-analysis of the deposited data

Results flagged for a closer look

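For 3 named genes, all with a mean of at least 5 FPKM, the difference was 2-fold or more in opposite directions in BT-20 and MDA-MB-468. The difference between the lines was not tested, since each line had 1 library per shRNA. NT5E, the ectonucleotidase CD73, which makes adenosine from AMP, had a log2 difference of 1.32 in BT-20, from 6.44 to 17.6 FPKM, and of -1.16 in the other line. S100A8, a subunit of calprotectin, had a log2 difference of 1.16 in BT-20, from 171 to 384 FPKM, and -1.05 in the other line. TENT5B, a terminal nucleotidyltransferase, had a log2 difference of -1.12 in BT-20, from 14.8 to 6.23 FPKM, and 1.19 in the other line, from 11.2 to 26.8 FPKM. Over all tested genes, 8 were 2-fold higher in BT-20 while 2-fold lower in the other line, 5 were the reverse, 20 were 2-fold lower in both and 2 were 2-fold higher in both. The percentages of all tested genes that were 2-fold higher or lower in the other line are not given here. These counts are therefore not read as more or fewer than such percentages would give.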

How the results depend on the processing

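No paired analysis was possible because each group had 1 library. Of 240 list medians under the alternatives run, 224 were within 0.1 of the reported value and 16 moved further. Sign changed only for lists whose medians lay near 0, among them those of NAD+ salvage, purinergic and hypoxia genes. QPRT kept its direction (-2.62 to -2.50), as did the 229 values of the other genes furthest above or below control. The number of 2-fold higher genes was 356 with a pseudocount of 0.1, 222 with no filter, 254 as TPM, 49 at a mean of 5 FPKM, 69 at 100 fragments and 787 at 1.5-fold, and of lower genes 234 with a pseudocount of 0.1, 38 at a mean of 5 FPKM, 38 at 100 fragments and 477 at 1.5-fold. With protein-coding genes only, chosen after seeing the data, they were 89 and 63. Of the genes called 2-fold, 57.0% were higher, against 66.3% as TPM and 66.8% after removal of the trend (177 higher and 88 lower). Without the marker genes of other tissues, chosen after seeing the data, there were 146 higher and 101 lower. The S100 median was 0.71 with a pseudocount of 0.1, 0.37 at a mean of 5 FPKM and 0.36 at 100 fragments, and the kallikrein median 0.90 with that pseudocount. With no filter, kallikreins were at 0.18, integrins at 0.036, interferon-stimulated genes at 0.029 and NAD+ synthesis from tryptophan at -0.039. With the trend removed, S100 genes were at 0.64, kallikreins at 0.93, purinergic genes at 0.10, homologous recombination at 0.11, histones at -0.20, oxidative phosphorylation at -0.11, cytosolic ribosomal proteins at -0.090 and mitochondrial ribosomal proteins at -0.088. The cause of these moves was not tested. Depth limits the low genes, since 74 of the higher and 67 of the lower genes had under 100 fragments, and with 1 library a side the spread between cultures is unknown.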

Other observations

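AHR, the aryl hydrocarbon receptor, for which kynurenine is a ligand, was at 6.57 and 15.2 FPKM with control and QPRT shRNA (197 and 467 fragments, log2 difference 1.10). Its target CYP1B1 was at 35.5 and 51.6 FPKM, whereas CYP1A1 was at 2.60 and 0.99, TIPARP at 27.9 and 24.7 and the repressor AHRR at 17.9 in both. The targets thus lay on both sides of control. Among retinoid genes, besides DHRS9, RDH10 (63.4 and 90.9 FPKM) and RARRES1 (149 and 244 FPKM) were above control and DHRS3 (403 and 314 FPKM) below it, while ALDH1A3 was at 73.4 and 76.1 and CRABP2 at 209 and 199. The glucocorticoid-induced gene TSC22D3 was at 432 and 217 FPKM, the opposite direction to ANXA1.

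Subunits of AP-1 differed in direction, with FOSL1 at 8.46 and 16.8 FPKM and JUN at 86.6 and 51.1. Among 25 hypoxia-inducible genes tested, 3 were 2-fold lower, against 0.803% of all genes, namely SLC2A3 (4.77 and 1.21 FPKM), EGLN3 and ADM, while AK4 was at 11.3 and 23.1 FPKM. Of the 25, 15 lay above the median of all genes. The list's median minus that of all genes was 0.03, and -0.02 with the trend removed. Among annexins, ANXA6 was at 32.2 and 18.4 FPKM and ANXA2 at 1448 and 1296, against the higher ANXA1. Among 18 keratins tested, KRT81 and KRT13 were 2-fold higher and KRT20, also an intestinal marker, 2-fold lower, against 1.07% and 0.803% of all genes, and the list's median minus that of all genes was -0.04. KRT81, at 0.49 and 4.38 FPKM, passed the minimum only through the QPRT shRNA library. It is abundant in MDA-MB-468, and the share of that line's level equals 83% of its difference. Among interferon-stimulated genes, SAMD9 (1.58 and 5.25 FPKM) and SAMD9L (0.54 and 2.70 FPKM, which passed the minimum only through the QPRT shRNA library) were 2-fold higher, 2 of 39 tested against 1.07% of all genes, while IFITM3 was at 753 and 635. Of 168 processed pseudogenes tested, 15 were 2-fold higher and 4 were 2-fold lower, against 1.07% and 0.803% of all genes, and such copies can hold reads of their parent genes.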
